A study of Mus musculus with 32 samples.

Results

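The step from postnatal day 14 to postnatal day 21 (P14 to P21) of mouse kidney maturation is described here from 6 of the 32 two-colour microarrays of the series: the 3 arrays whose sample titles start with P14 and the 3 whose titles start with P21, with all genes measured on them. Every sample is total RNA from the kidney of C57BL/6 mice, an inbred laboratory strain, aged 14 or 21 days, with no treatment or genetic change named for these groups. The kidney RNA carried Cy5, and a universal mouse reference RNA that all arrays share carried Cy3. The source names call the kidneys normal, and this was taken as given, although a protocol text attached to the samples describes ureteral obstruction. Nothing in the labels gives the number of animals behind an array, so the spread that p-values measure may be partly technical. Each test took that spread from all 32 arrays of the series, whose stages run from embryonic day 19 (E19) to P35. Each SE and adjusted p below thus rests on more than the 6 arrays. A level below is a log2 ratio of kidney over reference RNA, converted from deposited values whose scale and direction the labels do not state and which were read as log10 ratios from the values themselves, and a change is the P21 level minus the P14 level, so a change of 1 is a doubling.

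In the mouse, nephrons stop forming within the first days after birth, and the kidney then grows mainly by lengthening and widening of the tubules that exist. Dividing tubule and stromal cells give way to resting ones, the loose fetal stroma thins out, and segments acquire the enzymes and transporters of the adult organ. The third week is also when pups begin to take solid food beside milk, so that the diet moves from fat towards carbohydrate while the ability to concentrate urine develops.

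The 6 arrays differed in more than age. Xist, the RNA that coats the inactive X chromosome in females, had levels of -5.71, -5.74 and -6.04 on the P14 arrays and 1.97, 1.92 and 1.98 on the P21 arrays. Eif2s3y, a gene of the Y chromosome, had levels of 1.98, 2.89 and 1.66 on the P14 arrays and -6.71, -6.69 and -7.88 on the P21 arrays. The P14 arrays thus all read as male and the P21 arrays all as female, and age and sex cannot be told apart within these 6 arrays. Neither gene passed the test of the step, and both varied within other stages (limma adjusted p = 0.19 and 0.13). Across all stages, 5 genes, Xist itself and Eif2s3y among them, followed the Xist level within a stage past the threshold. Of the genes called below, 0 were among the 5. A gene that follows Xist within stages has a wide spread in this fit, which hinders a call of the step. This 0 therefore does not show that the calls are free of sex. The image numbers in the labels fall into 3 runs, a possible batch: replicates 1, 2 and 3 of P14 lie in runs 3, 2 and 1, and those of P21 in runs 3, 3 and 1. P14 replicate 3 and P21 replicate 3, both of run 1, correlated at r = 0.949 over genes. Pairs of the same stage ran from 0.910, for P14 replicates 1 and 3, to 0.975, for P21 replicates 1 and 2. The tissue label was borne out by the kidney markers: the median level of the proximal transport genes lay between 5.97 and 6.56 on the 6 arrays, and that of thick ascending limb genes between 5.02 and 5.79. Adipose tissue genes had a median level of 0.24 on P14 replicate 2 and of 4.69 to 6.26 on the other 5 arrays.

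Of 17015 genes tested, 440 (2.59%) differed between P14 and P21 at an adjusted p under 0.05 with limma. Of these, 112 (0.658%) rose and 328 (1.93%) fell. The change reached at least 2-fold for 72 of the rises and 257 of the falls. The median change over all genes tested was 0.0096, with 8682 genes above 0 and 8333 below. The levels measured at P21 lay wholly above or wholly below those at P14 for each of the 440 genes, as they did for 20.7% of all genes tested, most of which did not pass, so a gap between the stages alone is no call. With each of the 6 arrays left out in turn, 152 genes measured on all 6 arrays, 28 rises and 124 falls, passed every time, and the genes named below are among them unless said otherwise. There were 227 calls without P14 replicate 2, 235 without P14 replicate 3, 198 without P21 replicate 1 and 223 without P21 replicate 2, against 444 without P14 replicate 1 and 324 without P21 replicate 3. With the image run as a block there were 904 calls (5.31%), which held 439 of the 440. With only the 6 arrays in the fit there were 157, of which 136 were shared with the 440. With the Xist level as a covariate there were 294 (1.73%), of which 253 were shared with the 440. Under the covariate 1 of the 440 changed sign: Cyp2a12, a cytochrome P450 named after its values were seen. It changed by -2.92 (adjusted p = 0.034), against 22.297 with the covariate (adjusted p = 0.43). Cyp2a12 was measured on 2 arrays per stage, and without any 1 array other than P14 replicate 1 it had no call. Leaving out an array that held a value left too few values for a test. The bar plot of calls sets this step beside the other 8 between neighbouring stages, which share arrays with it and differ in length.

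**Figure D1:**
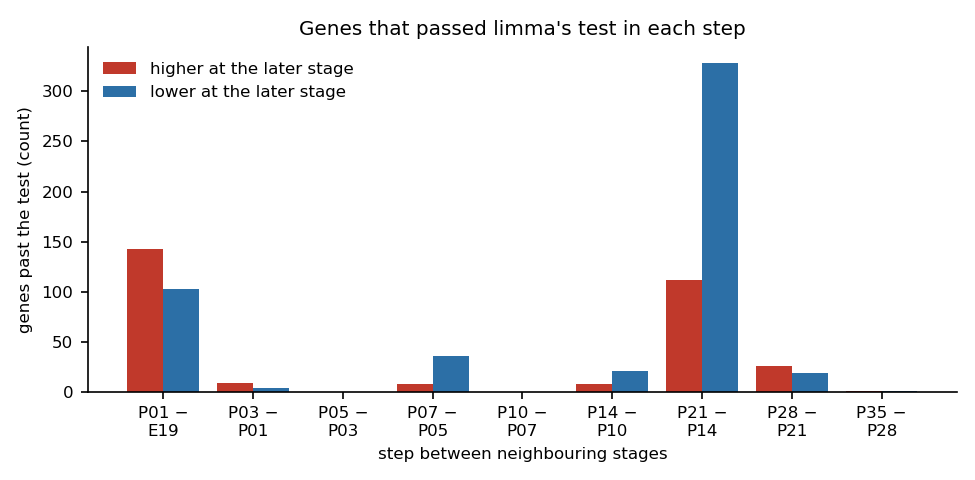
Number of genes that passed limma's test (adjusted p under 0.05) in each of the 9 steps between neighbouring stages, with genes higher (red) and lower (blue) at the later stage. P21 minus P14 had 112 higher and 328 lower, and the other steps had between 0 and 246 in all.

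Cell division genes formed the largest group of falls among the lists examined. Of 31 mitosis genes tested, 19 fell and 0 rose, against a fall in 1.93% of all genes. The median change was -1.36, against 0.0096 over all genes. Birc5, the survivin subunit of the chromosomal passenger complex, had levels of -1.07, -0.53 and -0.84 on the P14 arrays and -3.31, -2.94 and -2.67 on the P21 arrays. It fell by 2.16 ± 0.34 on the log2 scale (SE, n = 3 arrays per stage, limma adjusted p = 3.8e-04), and the stages did not overlap. Aurkb, the kinase of the same complex, changed by -2.102 ± 0.43 (SE, n = 3 arrays per stage, limma adjusted p = 0.0058). Cenpa, the histone that marks centromeres, had levels of -1.92, -1.64 and -1.93 on the P14 arrays and -3.73, -3.52 and -3.47 on the P21 arrays, a change of -1.75 ± 0.27 (SE, n = 3 arrays per stage, limma adjusted p = 3.7e-04). The levels lay close together within each stage and far apart between stages. Mki67, the antigen used to score dividing cells, changed by -1.696 ± 0.34 (SE, n = 3 arrays per stage, limma adjusted p = 0.0048). Cdk1, the kinase that drives entry into mitosis, did not pass, with levels of -2.29 ± 0.22 at P14 and -2.93 ± 0.078 at P21 (SD, n = 3 each). Of the 19 falls, which ran from -1.11 to -2.16, 17 also passed without each of the 6 arrays, 12 members passed with the Xist level as a covariate, and a block for the image run gave 23.

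Of 30 DNA replication genes tested, 16 fell, 0 rose and all 30 had a change below 0, with a median of -1.0005. Over all 17015 genes, 1.93% fell and 8333 had a change below 0. Mcm6, a subunit of the helicase that opens replication origins, had levels of -1.06, -0.49 and -0.57 on the P14 arrays and -2.298, -2.17 and -1.82 on the P21 arrays. It changed by -1.39 ± 0.24 (SE, n = 3 arrays per stage, limma adjusted p = 0.001) and its levels did not overlap between stages. Mcm4, another helicase subunit, changed by -1.16 ± 0.22 (SE, n = 3 arrays per stage, limma adjusted p = 0.0028), and Rrm2, the regulated subunit of the enzyme that makes deoxynucleotides, by -1.27 ± 0.22 (SE, n = 3 arrays per stage, limma adjusted p = 0.001). Pcna, the sliding clamp of the DNA polymerases, changed by -0.903 ± 0.1998 (SE, n = 3 arrays per stage, limma adjusted p = 0.011), but lost its call without P14 replicate 3, without P21 replicate 2 and with the Xist covariate (adjusted p = 0.062). Mcm2, with levels of -1.54 ± 0.52 at P14 and -2.36 ± 0.053 at P21 (SD, n = 3 each), did not pass. Only 4 of the 16 falls passed without each array in turn, and 8 members passed with the Xist covariate. Mcm4 lost its call with exact zeros kept as ratios. In whole kidney, fewer cells of a kind and less RNA per cell cannot be told apart, here or in any result below.

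Because these genes moved together, their promoters are shown: 250 bases before and 50 after the start, from RefSeq (GRCm38.p6), for the named members that the table holds. Letters searched are in capitals where found: CCAAT boxes (CCAAT) in all 4 windows, the cell cycle element TTTGAA in the mitosis genes, and the E2F motif TTTNGCGC in the replication genes, each searched on both strands.
Birc5, chr11:117848987-117849286, plus strand: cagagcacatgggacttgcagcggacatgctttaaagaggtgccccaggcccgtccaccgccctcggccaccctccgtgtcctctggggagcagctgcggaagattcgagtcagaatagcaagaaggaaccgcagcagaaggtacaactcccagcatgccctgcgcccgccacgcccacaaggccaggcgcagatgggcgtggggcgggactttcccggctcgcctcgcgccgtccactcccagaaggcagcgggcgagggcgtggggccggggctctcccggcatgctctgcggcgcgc
Cenpa, chr5:30666636-30666935, plus strand: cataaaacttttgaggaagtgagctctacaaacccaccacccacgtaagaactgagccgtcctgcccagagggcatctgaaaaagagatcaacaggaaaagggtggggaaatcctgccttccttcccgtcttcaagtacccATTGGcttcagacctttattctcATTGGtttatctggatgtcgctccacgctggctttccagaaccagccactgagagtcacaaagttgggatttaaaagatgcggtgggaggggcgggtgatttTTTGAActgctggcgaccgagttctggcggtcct
Mcm6, chr1:128359656-128359955, minus strand: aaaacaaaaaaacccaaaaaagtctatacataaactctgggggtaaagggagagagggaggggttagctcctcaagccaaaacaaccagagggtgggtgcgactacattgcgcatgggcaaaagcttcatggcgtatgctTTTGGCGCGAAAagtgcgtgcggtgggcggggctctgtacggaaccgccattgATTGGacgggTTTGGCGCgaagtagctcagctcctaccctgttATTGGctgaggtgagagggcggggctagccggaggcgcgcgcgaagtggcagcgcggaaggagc
Rrm2, chr12:24708004-24708303, plus strand: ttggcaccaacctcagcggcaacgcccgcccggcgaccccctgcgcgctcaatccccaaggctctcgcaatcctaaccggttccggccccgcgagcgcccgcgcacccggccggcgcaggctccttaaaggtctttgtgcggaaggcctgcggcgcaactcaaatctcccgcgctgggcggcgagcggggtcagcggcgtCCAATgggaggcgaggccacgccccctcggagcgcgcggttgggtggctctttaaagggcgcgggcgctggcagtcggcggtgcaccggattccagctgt
The Cenpa window held 1 TTTGAA, 17 bases after the start, and 2 CCAAT boxes on the reverse strand. The Mcm6 window held 3 E2F matches, of which 2 on opposite strands overlap, and 2 CCAAT boxes. The Rrm2 window held 1 CCAAT box and the Birc5 window held none of the letters searched. TTTGAA occurred in the promoters of 20 of 27 mitosis genes with an entry (74.1%), against 16.2% of 13650 tested genes with one. It occurred in 4 of 25 replication genes. CCAAT occurred in 20 of 27 mitosis genes and 16 of 25 replication genes, against 42.3% of all. TTTNGCGC occurred in 10 of 25 replication genes (40.0%) and 2 of 27 mitosis genes, against 2.4% of all. These shares cover whole lists, whether or not a member fell. Among members that fell, TTTGAA occurred in 11 of 16 mitosis genes (68.8%) and 0 of 14 replication genes. CCAAT occurred in 11 of 16 and 8 of 14 of them, and TTTNGCGC in 0 of 16 and 6 of 14 (42.9%). The shares thus describe the lists and do not link a motif with the fall. Over all genes that fell, outside these lists, TTTGAA stood at 23.9% and TTTNGCGC at 3.1% of 226 genes. The other 4 motifs searched were TATAAA, in 1 of 27 mitosis and 2 of 25 replication genes against 12.3% of all, GTTAAT, in 2 and 1 against 6.6%, and CAAAGTCCA and TTATGTAA, in 0 of either list against 0.6% and 0.8%. A match describes these letters in this window only.

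Genes of the connective tissue and its matrix also fell. Of 28 extracellular matrix genes tested, 7 fell and 0 rose, against a fall in 1.93% of all genes, and the median change was -0.70. Mfap4, a microfibril protein of elastic fibres, had levels of 4.33, 4.26 and 5.05 on the P14 arrays and 2.24, 2.83 and 2.703 on the P21 arrays. It changed by -1.96 ± 0.22 (SE, n = 3 arrays per stage, limma adjusted p = 7.7e-06), and its stages did not overlap. Mfap5, of the same fibres, changed by -1.95 ± 0.31 (SE, n = 3 arrays per stage, limma adjusted p = 3.7e-04), and Fstl1, a secreted glycoprotein, by -1.69 ± 0.26 (SE, n = 3 arrays per stage, limma adjusted p = 2.9e-04). Col1a1, a chain of the main fibrillar collagen, changed by -1.25 ± 0.26 (SE, n = 3 arrays per stage, limma adjusted p = 0.0054). Col3a1, its companion in soft connective tissue, changed by -0.95 ± 0.21 (SE, n = 3 arrays per stage, limma adjusted p = 0.012), and this call was lost without P14 replicate 1, P21 replicate 1 or P21 replicate 3 and with the Xist covariate (adjusted p = 0.065). Col3a1 also lost it with the mean of all measured probes and with exact zeros kept as ratios. With a gene's most variable probe, both Col1a1 and Col3a1 lost the call. Mfap2, a microfibril component, and Postn, periostin, which lost its call without any 1 array other than P14 replicate 3 and with the Xist covariate, are the other members that fell. With the image run as a block 14 members fell, and with the Xist covariate 5 did. Among 15 basement membrane genes, 3 fell with a list median of -0.41: Nid1 and Nid2, which link laminin to collagen IV, and Agrn, a heparan sulfate proteoglycan. They are named after their values were seen and all lost the call in fits without 1 array. For Nid1 these left out P14 replicate 1 or 2 or P21 replicate 2 or 3, for Nid2 P14 replicate 1 or 2 or any P21 array, and for Agrn P14 replicate 2 or 3 or P21 replicate 1 or 2. Col4a3 and Col4a4, chains of the adult glomerular membrane, did not pass, with levels of 5.22 ± 0.15 at P14 and 5.03 ± 0.53 at P21 and 5.64 ± 0.45 at P14 and 5.62 ± 0.35 at P21 (SD, n = 3 each).

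Some of the imprinted genes of fetal growth fell. Of 15 imprinted growth genes tested, 4 fell and 0 rose, against a fall in 1.93% of all genes, with a median change of -0.56. Mest, an imprinted gene expressed from the paternal copy, had levels of 4.03, 3.499 and 3.83 on the P14 arrays and 2.04, 2.24 and 1.5997 on the P21 arrays. It changed by -1.83 ± 0.18 (SE, n = 3 arrays per stage, limma adjusted p = 2.5e-06), and every P21 array lay below every P14 array. Igf2, the fetal insulin-like growth factor, had levels of -0.84, -0.92 and 0.49 on the P14 arrays and -2.01, -1.999 and -1.47 on the P21 arrays and changed by -1.402 ± 0.31 (SE, n = 3 arrays per stage, limma adjusted p = 0.01). Its P14 replicate 3 stood above the other arrays, and its call was lost without that array, without P21 replicate 1 or without P21 replicate 2. Nnat and Cdkn1c, the latter an inhibitor of cell cycle kinases, are the other 2 that fell, named after their values were seen, and Cdkn1c lost its call without any 1 of the 6 arrays and Nnat without P21 replicate 2. Both lost it with the Xist covariate (adjusted p = 0.14 and 0.055). Igf1, the postnatal growth factor, did not pass, with levels of 0.42 ± 0.33 at P14 and 0.38 ± 0.15 at P21 (SD, n = 3 each), and Ghr, the growth hormone receptor, did not either, with levels of -0.039 ± 0.26 at P14 and 0.61 ± 0.32 at P21. In the growth hormone list of 17 genes only Stat5a, which relays growth hormone signals, rose, by 0.84 (adjusted p = 0.022), and it lost the call without P14 replicate 1, P14 replicate 3, P21 replicate 2 or P21 replicate 3 and with the Xist covariate (adjusted p = 0.083). Of 21 genes of tubule injury and immature epithelium, 1 fell: Sox11, a transcription factor of progenitor cells, changed by -1.76 ± 0.22 (SE, n = 3 arrays per stage, limma adjusted p = 4.1e-05). Of 24 nephron formation genes, 1 fell: Hey1, a target of Notch signalling, changed by -1.47 ± 0.29 (SE, n = 3 arrays per stage, limma adjusted p = 0.0041). Beside the 1.93% of all genes that fell, these single calls say nothing of the 20 and 23 members of the 2 lists that did not pass. Six2, which maintains nephron progenitors, did not pass and had levels of -0.78 ± 1.09 at P14 and -1.47 ± 0.52 at P21 (SD, n = 3 each).

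**Figure D2:**
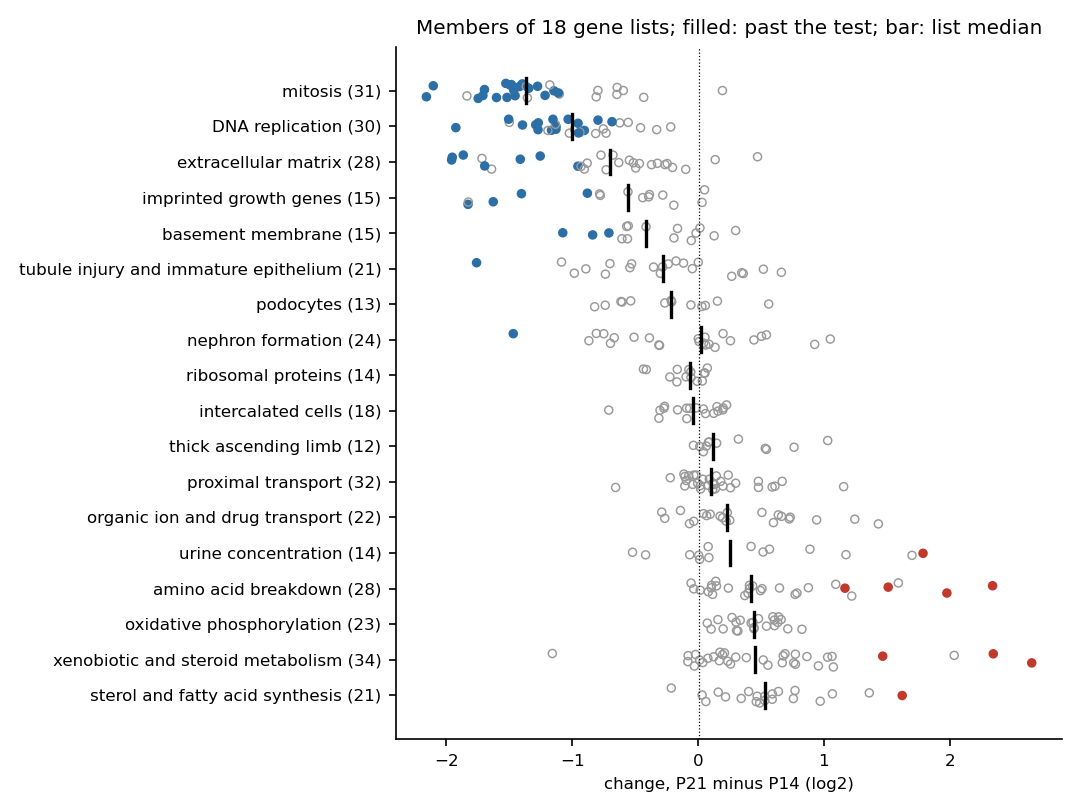
Change from P14 to P21 (log2) of every tested member of 18 gene lists, with the number tested in brackets. Filled points passed limma's test (red higher, blue lower at P21), black bars are list medians, and the dotted line is the median over all genes. Mitosis and DNA replication lie furthest to the left, with medians of -1.36 and -1.0005.

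The 12 largest falls among genes that also passed without each array came next. Cstdc6, a member of the stefin family of cysteine protease inhibitors, had levels of 2.39, 5.303 and 7.45 on the P14 arrays and -0.35, -0.12 and 1.103 on the P21 arrays. It changed by -4.84 ± 0.79 (SE, n = 3 arrays per stage, limma adjusted p = 6.4e-04), and its P14 arrays were spread far more widely than those of P21. Nrep, a small protein described in regenerating neurons, had levels of 4.42, 4.38 and 3.78 on the P14 arrays and 1.31, 0.35 and 0.99 on the P21 arrays, a change of -3.31 ± 0.46 (SE, n = 3 arrays per stage, limma adjusted p = 1.1e-04). Gria1, a subunit of AMPA glutamate receptors, had levels of -0.44, 0.039 and -1.23 on the P14 arrays and -3.82, -3.44 and -3.32 on the P21 arrays, a change of -2.99 ± 0.33 (SE, n = 3 arrays per stage, limma adjusted p = 7.7e-06). All 3 genes were lower on each P21 array than on any P14 array. Several others are also known from neurons: Kcnmb4, a beta subunit of the large calcium-activated potassium channel, changed by -2.84 (adjusted p = 7.6e-04), Adgrl3, an adhesion receptor of synapses, by -2.76 (adjusted p = 0.0016), Lgi2, a secreted leucine-rich repeat protein, by -2.697 (adjusted p = 7.7e-06), and Pnma2, a paraneoplastic antigen, by -2.92 (adjusted p = 0.001). No list of neuronal genes was examined, so no count stands behind that description. The remaining genes of the 12 are A230057D06Rik with a change of -3.23 (adjusted p = 1.7e-04), Igdcc4 with -3.197 (adjusted p = 0.0054), Pabpc4l with -2.93 (adjusted p = 2.0e-04), Dach2 with -2.82 (adjusted p = 2.3e-04) and Zmat4 with -2.68 (adjusted p = 0.0023). Adgrl3, Pnma2, Pabpc4l, Dach2 and Zmat4 lost the call when a gene's value was the mean of all its measured probes. Pabpc4l, Dach2 and Zmat4 also lost it with exact zeros kept as ratios. Mt2, a metallothionein that binds zinc and copper, had levels of 1.06, 1.79 and 1.39 on the P14 arrays and -1.19, -0.91 and -1.09 on the P21 arrays. It changed by -2.48 ± 0.42 (SE, n = 3 arrays per stage, limma adjusted p = 0.001) and was the sole fall among 17 antioxidant genes, of which Nqo1, a quinone reductase, was the sole rise (1.02, adjusted p = 0.047, lost without any 1 of the 6 arrays).

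The largest rises included enzymes, a transporter and secreted factors. Hsd11b1, which regenerates active glucocorticoid from its inert form, had levels of 1.95, 0.94 and 0.43 on the P14 arrays and 3.96, 3.903 and 3.42 on the P21 arrays. It changed by 2.65 ± 0.45 (SE, n = 3 arrays per stage, limma adjusted p = 0.001) and did not overlap between stages. Fst, follistatin, a secreted antagonist of activins, had levels of -2.47, -3.17 and -2.72 on the P14 arrays and 0.27, -0.11 and -0.75 on the P21 arrays, a change of 2.59 ± 0.29 (SE, n = 3 arrays per stage, limma adjusted p = 7.7e-06). Mfsd2a, which carries lysophospholipids with long-chain omega-3 fatty acids into cells, had levels of -1.41, -1.52 and -1.84 on the P14 arrays and 0.84, 2.09 and 0.079 on the P21 arrays, a change of 2.59 ± 0.39 (SE, n = 3 arrays per stage, limma adjusted p = 2.9e-04). The P14 arrays of Mfsd2a lay close together, while P21 replicate 2 stood above the other P21 arrays. Gys2, the liver form of glycogen synthase, changed by 2.29 ± 0.43 (SE, n = 3 arrays per stage, limma adjusted p = 0.0026), and Bcat1, the cytosolic branched-chain aminotransferase, by 2.55 ± 0.45 (SE, n = 3 arrays per stage, limma adjusted p = 0.0012). Elavl3, an RNA-binding protein known from neurons, changed by 2.68 (adjusted p = 0.0012), Gadd45g, a gene of growth arrest and stress, by 2.53 (adjusted p = 0.001), Sycn, a protein of pancreatic zymogen granules, by 2.17 (adjusted p = 5.0e-05), and St6galnac5, a sialyltransferase, by 2.16 (adjusted p = 0.0039). Apol9a, an apolipoprotein L gene with close paralogues, changed by 2.47 (adjusted p = 0.0011), and Clec2e, a C-type lectin, by 2.12 (adjusted p = 0.0024). Clec2e was the only one of the 12 that lost its call with the Xist covariate and the image run together. St6galnac5 lost its call with its most variable probe.

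**Figure D3:**
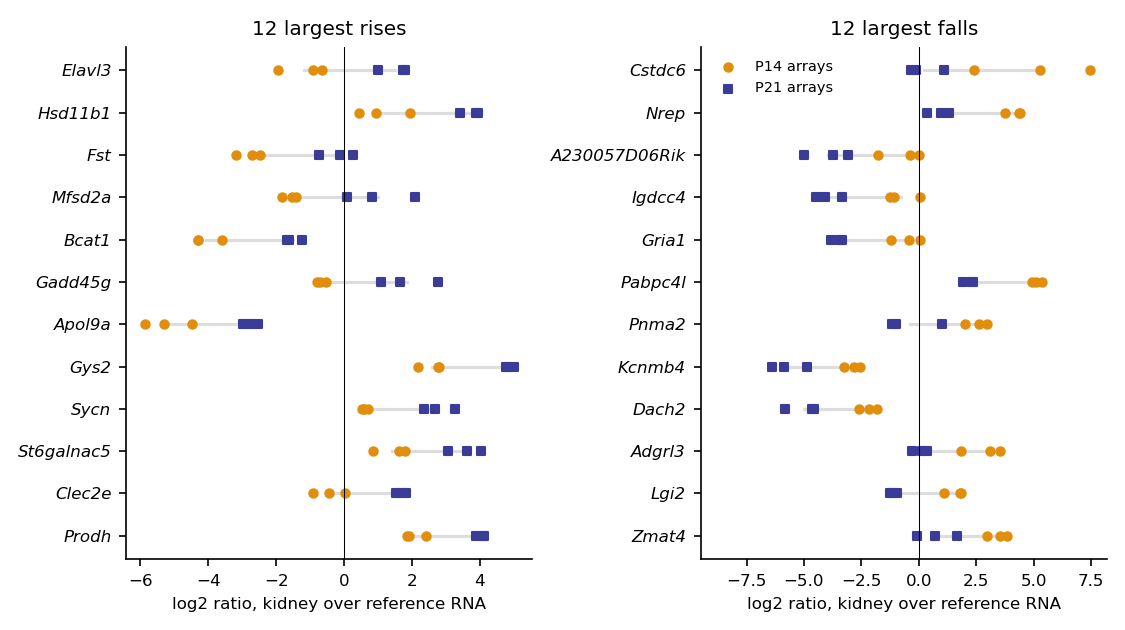
Levels (log2 ratio of kidney over reference) on each P14 array (orange circles) and P21 array (blue squares) of the 12 largest rises and 12 largest falls among genes that also passed without each array. Grey lines join the stage means. The 3 P14 arrays of Cstdc6 run from 2.39 to 7.45.

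Few members of the metabolic lists passed. Of 28 amino acid breakdown genes, 4 rose and 0 fell, against a rise in 0.658% of all genes. A change above 0 was seen in 26, against 8682 of all 17015 genes, and the median was 0.42. Prodh, proline dehydrogenase, which starts proline breakdown in mitochondria, had levels of 2.42, 1.87 and 1.91 on the P14 arrays and 4.14, 4.0998 and 3.89 on the P21 arrays. It changed by 1.98 ± 0.26 (SE, n = 3 arrays per stage, limma adjusted p = 5.4e-05), and the arrays of each stage lay close together. Ddc, which makes dopamine in the proximal tubule, changed by 1.51 ± 0.303 (SE, n = 3 arrays per stage, limma adjusted p = 0.0047), and did not pass with the Xist covariate (adjusted p = 0.059) or with its most variable probe. Gldc, of the glycine cleavage system, and Bckdhb, of branched-chain keto acid breakdown, also rose, by 2.34 and 1.17 (adjusted p = 0.039 and 0.0062). Gldc lost its call without any 1 of the 6 arrays and with the Xist covariate (adjusted p = 0.054), and Bckdhb without P14 replicate 2 or P21 replicate 1. Hpd, an enzyme of tyrosine breakdown, did not pass, with levels of 3.48 ± 1.03 at P14 and 5.08 ± 0.49 at P21 (SD, n = 3 each).

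Of 34 genes of xenobiotic and steroid metabolism, 3 rose (Hsd11b1, Gstm1 and Nat8) and 0 fell, against a rise in 0.658% of all genes, with a median of 0.45. Gstm1, a glutathione transferase, had levels of 0.91, 0.18 and 0.59 on the P14 arrays and 2.02, 1.85 and 2.21 on the P21 arrays, a change of 1.47 ± 0.24 (SE, n = 3 arrays per stage, limma adjusted p = 6.5e-04). Nat8, an acetyltransferase that completes mercapturic acids, changed by 2.34 ± 0.499 (SE, n = 3 arrays per stage, limma adjusted p = 0.0078) and lost the call without P14 replicate 2 or P21 replicate 2. Cyp2e1 and Cyp4b1, cytochromes P450 of the tubule, did not pass, with levels of 5.14 ± 0.57 at P14 and 5.32 ± 0.47 at P21 and 5.23 ± 0.27 at P14 and 5.9004 ± 0.054 at P21 (SD, n = 3 each). Of 21 genes of sterol and fatty acid synthesis, 1 rose, with a list median of 0.53 and 20 members above 0, against 8682 of all 17015 genes. Cyp51, which removes a methyl group from lanosterol, had levels of -1.62, -1.47 and -1.36 on the P14 arrays and 0.503, 0.48 and -0.57 on the P21 arrays. It changed by 1.62 ± 0.25 (SE, n = 3 arrays per stage, limma adjusted p = 3.3e-04), and P21 replicate 3 was the lowest of the P21 arrays. All 23 oxidative phosphorylation genes had a change above 0, as did 8682 of all 17015 genes, with a median of 0.44, but 0 passed. Ndufa1, a subunit of complex I, had levels of 2.06 ± 0.17 at P14 and 2.503 ± 0.12 at P21 (SD, n = 3 each). Among the 17 genes of mitochondrial fatty acid oxidation, the 17 of PPAR alpha targets, the 11 of glucose production and the 15 of serine and one-carbon synthesis, 0 passed, with medians of 0.029, 0.080, 0.083 and -0.021. Acadm and Acadvl, dehydrogenases of fatty acid oxidation, did not pass, with levels of 2.37 ± 0.073 at P14 and 2.79 ± 0.087 at P21 and of 2.09 ± 0.18 at P14 and 2.17 ± 0.196 at P21, and neither did Cpt1a, which admits fatty acids to mitochondria, with 2.04 ± 0.18 at P14 and 2.12 ± 0.14 at P21. Pck1 and G6pc, of glucose production, had levels of 9.62 ± 0.24 at P14 and 9.31 ± 0.63 at P21 and of 5.44 ± 0.32 at P14 and 5.49 ± 0.34 at P21. Phgdh and Psat1, of serine synthesis, had levels of -1.34 ± 0.35 at P14 and -1.97 ± 0.25 at P21 and of -2.66 ± 0.25 at P14 and -2.68 ± 0.14 at P21, and Ndufb5, of complex I, 1.22 ± 0.22 at P14 and 1.297 ± 0.19 at P21. None of these 5 passed. Gpx3, the plasma glutathione peroxidase, and Cat, catalase, did not pass either, with levels of 4.44 ± 0.23 at P14 and 4.48 ± 0.28 at P21 and of 1.89 ± 0.68 at P14 and 2.65 ± 0.39 at P21 that overlapped.

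The transporters and channels that define the nephron segments mostly did not pass. None of the 32 proximal transport genes, 22 organic ion and drug transporters, 12 thick ascending limb genes, 16 distal convoluted and connecting tubule genes, 11 sodium channel and aldosterone genes or 18 intercalated cell genes passed, with medians from -0.041 to 0.23. Slc34a1, the phosphate transporter of the proximal tubule, had levels of 6.46 ± 0.23 at P14 and 6.59 ± 0.39 at P21 (SD, n = 3 each). Slc6a19, the neutral amino acid transporter, had levels of 6.66 ± 0.84 at P14 and 7.82 ± 0.44 at P21. Slc12a1, the sodium, potassium and chloride cotransporter of the thick ascending limb, had levels of 8.13 ± 0.14 at P14 and 8.67 ± 0.24 at P21. Umod, uromodulin of the same segment, had levels of 5.25 ± 0.58 at P14 and 5.402 ± 0.45 at P21. A missed threshold does not show that these levels were alike. In the urine concentration list of 14 genes 1 rose: Slc6a12, which takes up the osmolyte betaine, had levels of -0.41, -1.29 and -2.04 on the P14 arrays and 0.43, 0.16 and 1.03 on the P21 arrays. It changed by 1.79 ± 0.35 (SE, n = 3 arrays per stage, limma adjusted p = 0.004), and every P21 array lay above every P14 array. Aqp2, the vasopressin-regulated water channel, and Slc14a2, the urea transporter, did not pass, with levels of 3.06 ± 0.43 at P14 and 3.15 ± 0.39 at P21 and 2.82 ± 0.65 at P14 and 3.71 ± 0.24 at P21. Podocyte genes, with a median of -0.21 over 13 genes, the 9 genes of the renin-angiotensin system (0.069), the 10 of vitamin D and phosphate hormones (0.19), the 14 of glucocorticoid and thyroid hormone response (0.24) and the 17 of the circadian clock (0.084) had 0 calls each.

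The first members of the lists of the nephron and its hormones give the levels behind these counts, with SD over n = 3 arrays per stage, and none of those given here passed. Slc22a6 and Slc22a8, organic anion uptake transporters of the proximal tubule, had levels of 4.01 ± 0.31 at P14 and 3.87 ± 0.41 at P21 and of 5.59 ± 0.33 at P14 and 5.302 ± 0.17 at P21. Slc12a3, the thiazide-sensitive cotransporter of the distal convoluted tubule, had levels of 5.37 ± 0.27 at P14 and 5.31 ± 0.35 at P21, and Pvalb, a calcium-binding protein of the same segment, 5.05 ± 0.62 at P14 and 5.42 ± 0.33 at P21. Scnn1a and Scnn1b, subunits of the epithelial sodium channel, had levels of 4.88 ± 0.16 at P14 and 5.19 ± 0.15 at P21 and of 4.77 ± 0.36 at P14 and 4.78 ± 0.24 at P21. The ranges of the 3 P14 and 3 P21 arrays overlapped for each of these 6 genes. Atp6v1b1, a proton pump subunit of intercalated cells, had levels of 3.93 ± 0.36 at P14 and 3.84 ± 0.37 at P21, and Slc4a1, their anion exchanger, 5.05 ± 0.46 at P14 and 5.18 ± 0.51 at P21. Nphs1, nephrin of the podocyte slit diaphragm, had levels of 4.05 ± 0.43 at P14 and 4.104 ± 0.35 at P21, and Agt, angiotensinogen, 5.33 ± 0.32 at P14 and 5.41 ± 0.35 at P21. These 4 overlapped as well. Cyp24a1, which inactivates vitamin D, had levels of 7.47 ± 0.43 at P14 and 6.78 ± 0.24 at P21, and Cyp27b1, which activates it, 1.37 ± 0.88 at P14 and 2.32 ± 0.76 at P21. Nr3c1, the glucocorticoid receptor, had levels of -1.55 ± 0.92 at P14 and -1.42 ± 0.602 at P21, and Dio1, a deiodinase that activates thyroid hormone, 6.21 ± 0.16 at P14 and 6.62 ± 0.23 at P21. Dbp and Arntl, transcription factors of the circadian clock, had levels of -0.61 ± 0.19 at P14 and -0.601 ± 1.04 at P21 and of -1.03 ± 0.11 at P14 and -0.54 ± 0.95 at P21, both spread more widely at P21 than at P14. Sox9, a factor of immature and injured tubules, had levels of -2.33 ± 0.399 at P14 and -3.42 ± 0.13 at P21 (adjusted p = 0.084), and Cited1, a marker of nephron progenitors, 1.98 ± 0.23 at P14 and 1.99 ± 0.196 at P21.

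Among the other cell types and tissues a kidney sample can hold, calls were few. Of 13 genes of neutrophils and lymphocytes 2 fell. S100a8, of the neutrophil calprotectin, had levels of -2.49, 0.59 and 2.43 on the P14 arrays and -4.797, -2.79 and -3.04 on the P21 arrays and changed by -3.72 ± 0.94 (SE, n = 3 arrays per stage, limma adjusted p = 0.028). The call was lost without any 1 of 5 arrays, P14 replicate 1 being the exception, and with the Xist covariate (adjusted p = 0.083). Camp, the cathelicidin of neutrophil granules, was measured on 2 P21 arrays and changed by -4.67 ± 0.93 (SE, limma adjusted p = 0.0052), with P14 levels from 0.86 to 5.82. With 1 of those P21 arrays left out, it had too few values to be tested. S100a9 did not pass, with levels of 6.502 ± 1.44 at P14 and 5.04 ± 0.69 at P21 (SD, n = 3 each). Whether these cells had a part in other falls was not tested. Of 9 urothelium genes, Krt15, a keratin of basal cells, rose by 1.67 (adjusted p = 0.034) and lost the call without any 1 array other than P14 replicate 1, and with the Xist covariate (adjusted p = 0.065). The lists of erythroid cells, skeletal muscle, adipose tissue, adrenal gland, endothelium, smooth muscle and pericytes, antigen presentation and macrophages, interferon-induced genes, iron and erythropoietin, ribosomal proteins, immediate early and heat shock genes, and male-biased kidney genes had 0 members past the test, with medians from -0.73 in erythroid cells to 0.84 in adipose tissue. In all, 15 of the 44 lists had a member past the test. Of 710 list genes tested 12 rose and 54 fell, where 0.658% of all genes rose and 1.93% fell.

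The first members of those lists did not pass either, here with SD over n = 3 arrays per stage. Cdh5 and Pecam1, endothelial adhesion proteins, had levels of 5.74 ± 0.41 at P14 and 5.48 ± 0.24 at P21 and of 1.52 ± 0.68 at P14 and 1.31 ± 0.52 at P21. Acta2 and Myh11, contractile proteins of smooth muscle, had levels of -0.32 ± 0.19 at P14 and -0.92 ± 0.22 at P21 and of 4.79 ± 0.41 at P14 and 4.68 ± 0.66 at P21. Ckm and Acta1, of skeletal muscle, had levels of -0.84 ± 0.49 at P14 and -1.52 ± 0.71 at P21 and of -1.54 ± 0.49 at P14 and -2.22 ± 0.33 at P21. H2-Aa and Cd74, of antigen presentation, had levels of 3.31 ± 0.89 at P14 and 3.69 ± 0.597 at P21 and of -0.95 ± 0.13 at P14 and -0.56 ± 0.061 at P21. Adipoq, the adipocyte hormone adiponectin, had levels of 3.48 ± 3.51 at P14 and 5.03 ± 0.84 at P21, with the widest P14 spread of these genes, and Retn, resistin, 0.48 ± 0.85 at P14 and 1.2002 ± 0.74 at P21. Hba-a1, an alpha globin, had levels of 5.25 ± 0.86 at P14 and 4.996 ± 0.71 at P21, Epo, erythropoietin, -0.61 ± 1.29 at P14 and -1.25 ± 0.396 at P21, and Tfrc, the transferrin receptor, 1.802 ± 0.28 at P14 and 1.23 ± 0.28 at P21. All 3 overlapped between stages. Isg15 and Ifit1, induced by interferon, had levels of -1.53 ± 0.42 at P14 and -1.25 ± 0.069 at P21 and of -2.39 ± 1.09 at P14 and -1.33 ± 0.66 at P21. Fos and Fosb, immediate early transcription factors, had levels of -5.94 ± 0.78 at P14 and -5.25 ± 0.54 at P21 and of -2.38 ± 0.34 at P14 and -1.65 ± 0.26 at P21. Upk1a and Upk1b, plaque proteins of the urothelium, had levels of 1.09 ± 0.53 at P14 and 1.02 ± 0.52 at P21 and of -0.41 ± 1.27 at P14 and 0.19 ± 0.27 at P21, while the ribosomal proteins Rplp0 and Rps3 had -1.43 ± 0.22 at P14 and -1.502 ± 0.14 at P21 and -0.78 ± 0.198 at P14 and -0.73 ± 0.080 at P21. Kap, the androgen-regulated kidney protein, and Cyp4a12a, a male-biased cytochrome P450, had levels of 9.09 ± 0.703 at P14 and 9.65 ± 0.29 at P21 and of 2.44 ± 0.19 at P14 and 2.74 ± 0.11 at P21, and both overlapped between stages.

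How the step compares with steps of the same length was tested as a difference of changes. The interval P28 to P35 and the interval P03 to P10 share no array with P14 and P21. For P35 minus P28, 116 of 16610 genes (0.698%) differed, 19 with a higher and 97 with a lower change from P14 to P21, and 112 of the 116 were among the calls of the step. The count was 28 without P21 replicate 1, 35 without P28 replicate 3, 46 and 53 without P14 replicate 2 or 3, and 67 to 74 without P21 replicate 2, P28 replicate 2, P35 replicate 1 or P35 replicate 4. It was 41 with the Xist covariate and 10 with only the stages compared in the fit. Mest changed by -1.83 from P14 to P21 and its levels were 0.97 at P28 and 1.06 at P35, a difference of -1.91 (adjusted p = 5.9e-04). Ulbp1, a ligand of an activating receptor of natural killer cells, and 1700063H04Rik differed by -3.23 (adjusted p = 0.0067) and 2.102 (adjusted p = 0.0018). Fst, which rose in this step, had levels of -2.901 at P10, -2.79 at P14, -0.19 at P21, -1.02 at P28 and -0.702 at P35. For P10 minus P03, 373 of 16752 genes (2.23%) differed, 128 with a higher and 245 with a lower change from P14 to P21. That count was 183 without P14 replicate 2, 181 without P21 replicate 2, 198 without P10 replicate 3 and 220 without P21 replicate 1. Nrep had levels of 2.91 at P03 and 4.63 at P10 before its fall, a difference of -5.03 (adjusted p = 4.1e-05). Cyp3a13, a cytochrome P450, had levels of -2.37 at P03, 0.92 at P10, 0.86 at P14 and -1.33 at P21, and the difference was -5.47 (adjusted p = 6.9e-08). Gys2 had levels of -1.79 at P03 and 0.78 at P10, and its difference did not pass (-0.27 (adjusted p = 0.87)).

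**Figure D4:**
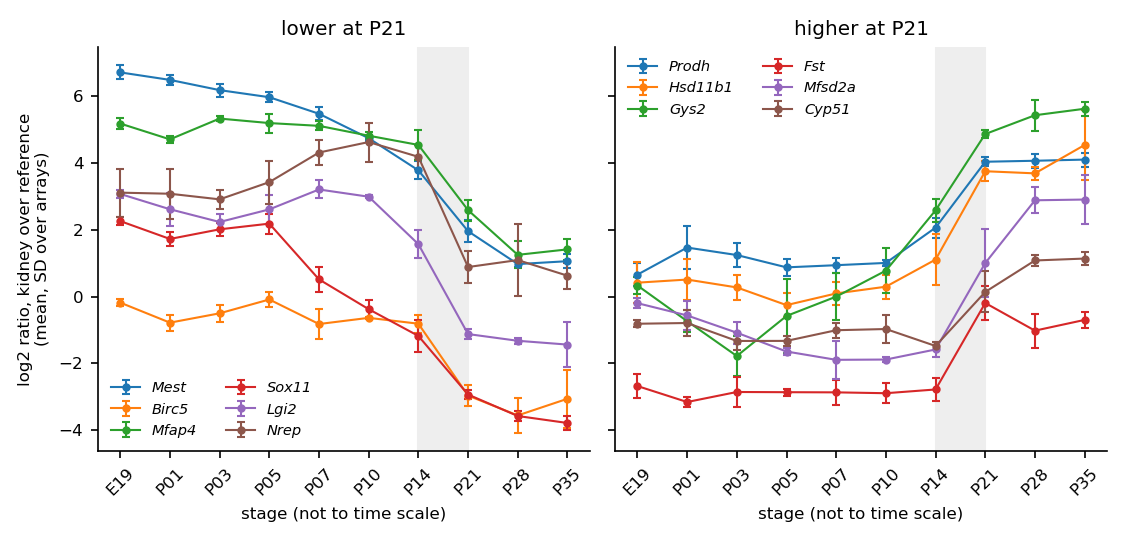
Mean level (log2 ratio of kidney over reference) at each stage, with bars of 1 SD over 3 or 4 arrays, for 6 genes lower and 6 genes higher at P21. The grey band marks P14 to P21. Fst stays between -3.16 and -2.69 from E19 to P10 and reaches -0.19 at P21.

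Since sex and age coincide on the 6 arrays, the 440 genes were also read on arrays of the flanking stages, a comparison chosen after seeing the data. The mean of P28 and P35 was set against the mean of P07 and P10, in which 3 of 7 and 2 of 6 arrays had Xist above the reference. In that comparison 6074 of 16509 genes (36.8%) passed. Of the called genes, 433 could be tested, 429 lay in the same direction as from P14 to P21, and 415 of these passed, against 12180 in the same direction (74.0%) and 5506 of them past the test among all 16459 genes tested in both. All 326 falls tested kept their direction and 321 passed, while 103 of 107 rises did and 94 passed. The 4 that did not keep it were Slc6a12, Amhr2, Olfr586 and Spdef, none of which passed there, and the last 3 are named after their values were seen. Amhr2 and Olfr586 lost the call of the step without P21 replicate 2, and Spdef lost it without any 1 of the 6 arrays. This interval spans the third week but is longer, so a gene may have moved before P14 or after P21. The test of the step and this test took each gene's spread from the same fit, to which the flanking arrays also contribute. The called genes were thus chosen partly for a small spread, which makes passing easier here too. The counts that passed are therefore not an independent check and cannot be set evenly against those of all genes. The directions are computed without that spread, but the sign of a change is also more certain for a gene with a small spread. The share in the same direction thus cannot be set evenly against the 74.0% of all genes either. Slc6a12 had levels of -0.97 at P10, -1.25 at P14, 0.54 at P21 and -1.63 at P28. Lingo2, a neuronal leucine-rich repeat protein that fell by 2.203 on the log2 scale from P14 to P21 (limma adjusted p = 6.3e-05), had levels of 1.55 at P14, -0.65 at P21 and 1.02 at P28. Both levels at P28 were nearer to that of P14 than to that of P21. Lingo2 lost the call of the step with the mean of all measured probes and with exact zeros kept as ratios.

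**Figure D5:**
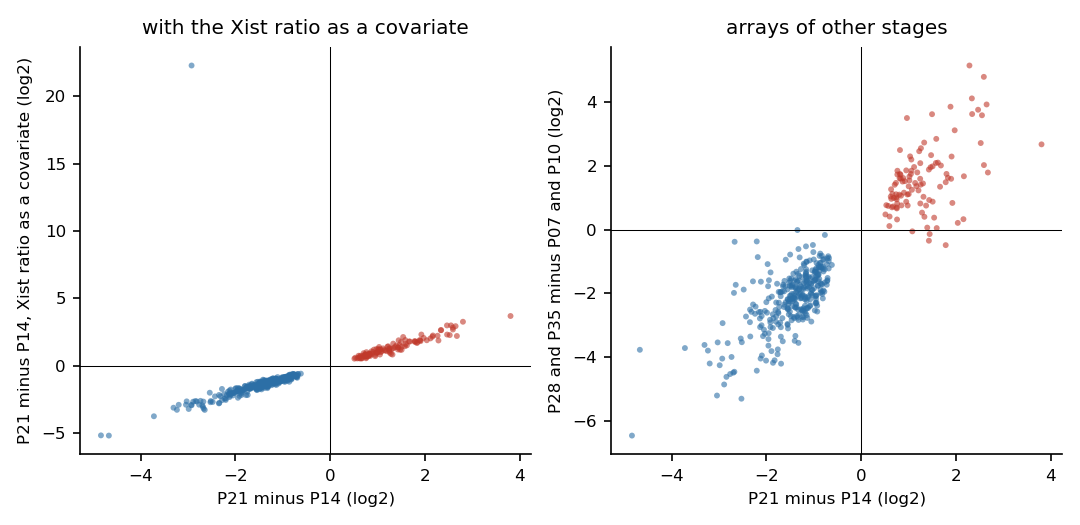
The 440 called genes (red rose, blue fell), with the change from P14 to P21 (log2) on the horizontal axis. The vertical axis is the change with the Xist level as a covariate (left) and the mean of P28 and P35 minus the mean of P07 and P10 (right, 433 genes), where 429 points share the direction of the step. The single point far above the others on the left is Cyp2a12.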

How the data were processed

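The deposited table holds 1 value per probe and array, used as log10 ratios of kidney (Cy5) over reference (Cy3). Neither the unit and direction nor the background correction and dye normalization the authors used is stated in the labels. Both were read from the values, which run from -3.25 to 4.00 and lie above 0 for kidney genes. If they were log2, changes would be 3.32 times smaller, with the same calls. Values were converted to log2, and an exact 0 (12.5% to 18.1% of values on the 6 arrays) counted as not measured.

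Of 45220 probes, 33653 have 1 symbol in the platform annotation. Each gene took the average over those probes that had values on all 32 arrays, or else its most often measured probe. Genes needed values on at least 2 arrays of each stage. limma 3.58.1 (R 4.3.3) fitted 1 mean per stage to all 32 arrays, with Benjamini-Hochberg adjustment and a threshold of 0.05. The fit was also run on simulated data with independent noise and no effect of image run or sex, so that run does not bear on either. Alternatives covered image run, the Xist level, arrays left out, scaling, probes, zeros, filters and priors. The Xist level had 1 slope over all stages, so a sex difference that varies with age would not be removed. Probes of 0 of 7324 genes with several passed in opposite directions. Figures used matplotlib 3.10.9.

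The genes named by rule are the 12 largest rises and falls that also passed without each of the 6 arrays, up to 3 such members and the first 2 genes of each of 44 lists, and the 5 largest differences of steps each way. Other called genes were named after their values were seen, Bckdhb, Camp, Gldc, Krt15, Mfap2, Nat8, Nqo1, Postn and Stat5a among them. Members and lists were chosen with earlier results of these data known. The number of arrays limits the precision.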

Additional observations from a re-analysis of the deposited data

Results flagged for a closer look

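The results listed here stand out because the change from P14 to P21 differed from the change over another 7-day interval by a test of the difference itself (limma, Benjamini-Hochberg adjusted), on arrays the 2 intervals do not share. Against P35 minus P28, 116 genes differed. The named differences in log2 units, change from P14 to P21 minus the later change, were 1700063H04Rik 2.102, Cstdc6 -6.35, Fst 2.27, Gadd45g 3.05, Kcnmb4 -2.88, Mfsd2a 2.57, Pabpc4l -3.12, Pnma2 -3.33, Prodh 1.94 and Ulbp1 -3.23. Against P10 minus P03, 373 genes differed, and the named differences were Bcat1 2.97, Cyp3a13 -5.47, Elavl3 2.81, Fst 2.63, Gadd45g 3.06, Lgi2 -3.46, Lingo2 -3.44, Mfsd2a 3.397, Nrep -5.03 and Zmat4 -3.74. Fst, Gadd45g and Mfsd2a are named in both comparisons, but others listed here also passed both. Prodh and 1700063H04Rik did so with a higher change from P14 to P21. Cyp3a13, Lgi2, Lingo2, Nrep, Pabpc4l and Ulbp1 did so with a lower one. The genes were taken from those that also passed the step itself, so their size in it is part of how they were chosen. The sex of the P14 and P21 arrays enters these differences too, and its part in them was not tested beyond the covariate fits.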

How the results depend on the processing

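Of the 51 genes past the test that were named by rule, 0 changed direction under any alternative run, but some lost the call. Called genes named after their values were seen are not among the 51, such as Cyp2a12, which changed sign with the Xist covariate. Of the 51, 19 lost the call with only the arrays of P14 and P21, 7 with the mean of all measured probes and 6 with zeros kept. It was lost by 4 with the most variable probe (Col1a1, Col3a1, Ddc and St6galnac5) and by 4 with the Xist covariate. The 19 were A230057D06Rik, Col1a1, Col3a1, Cstdc6, Cyp51, Gadd45g, Gstm1, Hey1, Igf2, Mcm6, Mfap5, Mfsd2a, Pcna, Pnma2, Rrm2, S100a8, Slc6a12, St6galnac5 and Zmat4. The 112 rises and 328 falls became 286 and 618 with the image run as a block, 2 and 6 within run 1, 4 and 9 within run 3, 27 and 130 with only the arrays of P14 and P21, 2475 and 2585 with array weights, and 85 and 209 with the Xist covariate. Leaving out 1 array gave 46 to 117 rises and 151 to 327 falls, the fewest rises without P14 replicate 2 or P21 replicate 2 and the fewest falls without P21 replicate 1. The 116 differences from P35 minus P28 became 226 with the block, 10 with only the stages compared, 1146 with array weights, 41 with the Xist covariate and 28 to 150 without 1 array. The 373 differences from P10 minus P03 became 842 with the block, 4698 with array weights and 181 to 520 without 1 array. Within a run 1 array stands against 1 or 2, its spread borrowed from the other stages. Why array weights gave more calls was not tested. No paired analysis was possible because replicate numbers here follow accession order and pair no samples. Spot intensities were not used, so what signal over background limits is not known.

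The 71 named genes without a call gave 134 changes of sign over the alternatives, so no direction is given for them. Of the 71, 25 passed with their sign unchanged under at least 1 alternative. These were 25 with array weights, 2 with only the stages compared, 2 without P14 replicate 1 and 1 with block and Xist covariate together. Within image run 3, the values of opposite sign were Adipoq -0.77, Cited1 -0.12, Cpt1a -0.0349, Cyp27b1 -0.30, Dbp -0.80, G6pc -0.0986, Hba-a1 0.0003, Ndufb5 -0.11, Nr3c1 -0.54, Pecam1 0.13, Rps3 -0.13, Slc34a1 -0.0245, Umod -0.0648, Upk1b -0.94. With array weights, the values of opposite sign were Agt -0.0595, Cdh5 0.0144, Col4a4 0.19, Cyp2e1 -0.30, Dbp -0.31, Epo 0.60, Fos -0.18, Isg15 -0.0884, Ndufb5 -0.0522, Psat1 0.18, Pvalb -0.13, Rplp0 0.13, Slc12a3 0.0151, Slc4a1 -0.0480, Upk1a 0.18. Within image run 1, the values of opposite sign were Arntl -0.62, Cited1 -0.0085, Ckm 0.67, Col4a3 0.33, Col4a4 0.36, Igf1 0.36, Myh11 0.20, Nphs1 -0.12, Pck1 0.12, Scnn1b -0.22, Six2 0.60, Slc12a3 0.0672, Upk1a 0.39. With the run as a block, the values of opposite sign were Cited1 -0.0591, Cpt1a -0.0075, Dbp -0.0038, G6pc -0.0104, Nr3c1 -0.0989. With array medians subtracted, the values of opposite sign were Cited1 -0.0144, Dbp -0.0140, Scnn1b -0.0142. With the Xist covariate, the values of opposite sign were Cited1 -0.22, Col4a4 0.28, Dbp -0.0752, Igf1 0.0694, Psat1 0.24, Slc12a3 0.18, Upk1a 0.0183. With block and Xist covariate together, the values of opposite sign were Cited1 -0.49, Col4a4 0.0376, Cpt1a -0.0322, Dbp -0.16, Igf1 0.0731, Nr3c1 -0.28, Psat1 0.31, Slc12a3 0.13, Slc22a6 0.0139. With the most variable probe, the values of opposite sign were Col4a4 0.14, Rplp0 0.0089. With quantile normalization, the values of opposite sign were Dbp -0.0013, Psat1 0.18, Rplp0 0.0218. Their ranges without 1 array were Acadvl -0.0366 to 0.17, Adipoq -0.48 to 2.65, Agt -0.0982 to 0.25, Aqp2 -0.14 to 0.33, Atp6v1b1 -0.30 to 0.12, Cited1 -0.11 to 0.12, Col4a4 -0.24 to 0.21, Cpt1a -0.0178 to 0.16, Cyp2e1 -0.15 to 0.39, Dbp -0.59 to 0.32, G6pc -0.15 to 0.21, Gpx3 -0.11 to 0.18, H2-Aa -0.0924 to 0.79, Hba-a1 -0.66 to 0.23, Igf1 -0.22 to 0.0890, Myh11 -0.49 to 0.12, Ndufb5 -0.0534 to 0.19, Nphs1 -0.11 to 0.30, Nr3c1 -0.25 to 0.64, Pecam1 -0.51 to 0.16, Psat1 -0.15 to 0.0890, Rplp0 -0.20 to 0.0023, Rps3 -0.0635 to 0.12, Scnn1b -0.13 to 0.21, Slc12a3 -0.26 to 0.0790, Slc22a6 -0.37 to 0.0391, Slc34a1 -0.0931 to 0.28, Slc4a1 -0.14 to 0.37, Umod -0.13 to 0.44, Upk1a -0.37 to 0.16. Of 924 list medians over the alternatives, 44 moved by more than 1 SD between arrays. With block and Xist covariate together, the median moved to mitochondrial fatty acid oxidation 0.16, imprinted growth genes -0.88, mitosis -1.02, smooth muscle and pericytes -0.44, sex-linked genes -0.33, erythroid cells -0.0257. Within image run 3, the median moved to oxidative phosphorylation 0.30, DNA replication -0.61, smooth muscle and pericytes -0.55, erythroid cells 0.0003, adrenal gland -0.36, urothelium -0.46. Within image run 1, the median moved to thick ascending limb 0.45, imprinted growth genes -0.72, mitosis -1.21, interferon-induced genes 0.84, erythroid cells -0.0820, adrenal gland 0.46, urothelium 1.52. With the Xist covariate, the median moved to imprinted growth genes -0.85, mitosis -1.17, smooth muscle and pericytes -0.39, sex-linked genes 0.18, male-biased kidney genes 0.67, urothelium 1.15. With array weights, the median moved to mitosis -1.50, interferon-induced genes 0.22, adrenal gland -0.11. With quantile normalization, the median moved to mitosis -1.27, skeletal muscle 0.13. With zeros kept, the median moved to mitosis -1.27, sex-linked genes -3.2497. With the mean of all probes, the median moved to mitosis -1.28. With the run as a block, the median moved to sex-linked genes -5.13. Their ranges without 1 array were PPAR alpha targets and ketogenesis -0.22 to 0.16, oxidative phosphorylation 0.38 to 0.56, thick ascending limb -0.13 to 0.42, imprinted growth genes -0.75 to -0.54, mitosis -1.42 to -1.27, interferon-induced genes 0.27 to 0.80, smooth muscle and pericytes -0.46 to -0.13, adrenal gland -0.12 to 0.24, urothelium 0.34 to 1.25. The causes were not tested.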
